A study of Mus musculus with 6 samples.

Results

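The genes described here are 50 genes of the cell cycle and of DNA replication, read in whole liver of LIRKO mice and of their Flox littermates. They were chosen by name, with earlier results of these data known. They run from the cyclins and kinases of the first gap phase through the replication machinery to the spindle checkpoint. A gene was read on the probe sets (groups of short oligonucleotides on the array that together report 1 transcript) that carry its symbol alone, and where there were several, on the one with the highest mean over all 6 arrays. On this rule 45 of the 50 were measured, out of 8251 genes that the array reads in the same way. *Tyms* was present only on 2 probe sets shared with other genes, and *Cdk6*, *Ccnb1*, *Cdc25b* and *Bub1b* had no probe set of their own in the annotation used here.

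LIRKO (Liver Insulin Receptor Knockout) mice are homozygous for a floxed insulin receptor gene and express a Cre recombinase driven by the albumin promoter (IR flox/flox albumin:CRE +), which deletes the receptor in hepatocytes and leaves it in the other cells of the liver. Flox mice carry the same floxed alleles without Cre (IR flox/flox albumin:CRE -). All mice were males of a mixed background, were 2 to 3 months old, ate chow freely and were not fasted when the liver was taken. There were 6 Affymetrix arrays, 3 Flox and 3 LIRKO, and every one of them read a pool of 2 to 3 livers, which makes the replicates pools and not single animals.

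Most hepatocytes of an adult liver rest outside the cell cycle and can re-enter it when the organ loses mass. In a cell that leaves rest, D-type cyclins and their kinases phosphorylate the pocket proteins and so release E2F, which turns on the genes of DNA replication, and later the B-type cyclins with CDK1 drive mitosis until the spindle checkpoint lets the chromosomes part. CDK inhibitors such as p21, p27 and p18 hold these kinases back, and *Cdkn1b* (p27) and *Ccng2* (cyclin G2) are known targets of the FoxO factors that insulin restrains.

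Arrays LIRKO 2 and LIRKO 3 stood apart from the other 4 arrays over the whole table. The log2 values of LIRKO 2 had an SD over probe sets of 1.72 and those of LIRKO 3 of 1.78, where the remaining arrays had 1.96 to 2.01. When all tested probe sets were put in 10 groups by their mean Flox level, the group of highest level had a median difference from Flox of -1.09 on LIRKO 2, -0.89 on LIRKO 3 and -0.01 on LIRKO 1, whereas the group of lowest level had 0.23, 0.15 and -0.03. The values below are therefore given array by array, and the part of this shift in the results was not tested beyond the corrected values given. The probe set for the insulin receptor itself read 5.45, 5.22 and 5.38 in Flox and 5.37, 5.99 and 6.06 in LIRKO, and since it is not known here whether it lies in the deleted stretch, it checks no label. The hepatocyte markers measured (7 of 8 listed) all lay above the median level of the table.

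No cell cycle or replication gene passed the test. In limma with Benjamini-Hochberg adjustment over all 12422 probe sets, 0 of the 45 genes were called higher and 0 lower in LIRKO at an adjusted p under 0.05, where the table as a whole gave 0.0725% higher and 0.0564% lower. By the unequal variance test that the study's methods name, adjusted in the same way, the count was also 0, with 2 of the 45 (*Pcna* and *Wee1*) at an unadjusted p under 0.05, which is 4.44% against 5.86% of all probe sets. In limma without adjustment, 11 of the 45 genes (24.4%) read higher in LIRKO at a p under 0.05 against 7.43% of all probe sets, and 1 (2.22%) read lower against 13.5%. These 11 were *Ccnd1*, *Cdk4*, *Cdkn1b*, *Cdkn2c*, *Mcm5*, *Pcna*, *Cdk1*, *Cdc25c*, *Wee1*, *Mki67* and *Mad2l1*, and the one was *Mcm7*.

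The ranges of the 2 groups were compared next. In 10 of the 45 genes (22.2%) all 3 LIRKO arrays lay above all 3 Flox arrays, against 9.84% of all probe sets, and in 1 gene (2.22%), *Mcm7*, they all lay below, against 14.9%. The median difference over the 45 genes was 0.09 on the log2 scale (range -0.38 to 0.91), with 29 above 0 and 16 below, and that over all probe sets was 0.01. Taken array by array, the genes had a median of 0.00 for LIRKO 1, 0.11 for LIRKO 2 and 0.18 for LIRKO 3. In bulk RNA, fewer cells of a type and less RNA per cell cannot be told apart, so none of these values says how many cells were cycling.

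**Figure D1:**
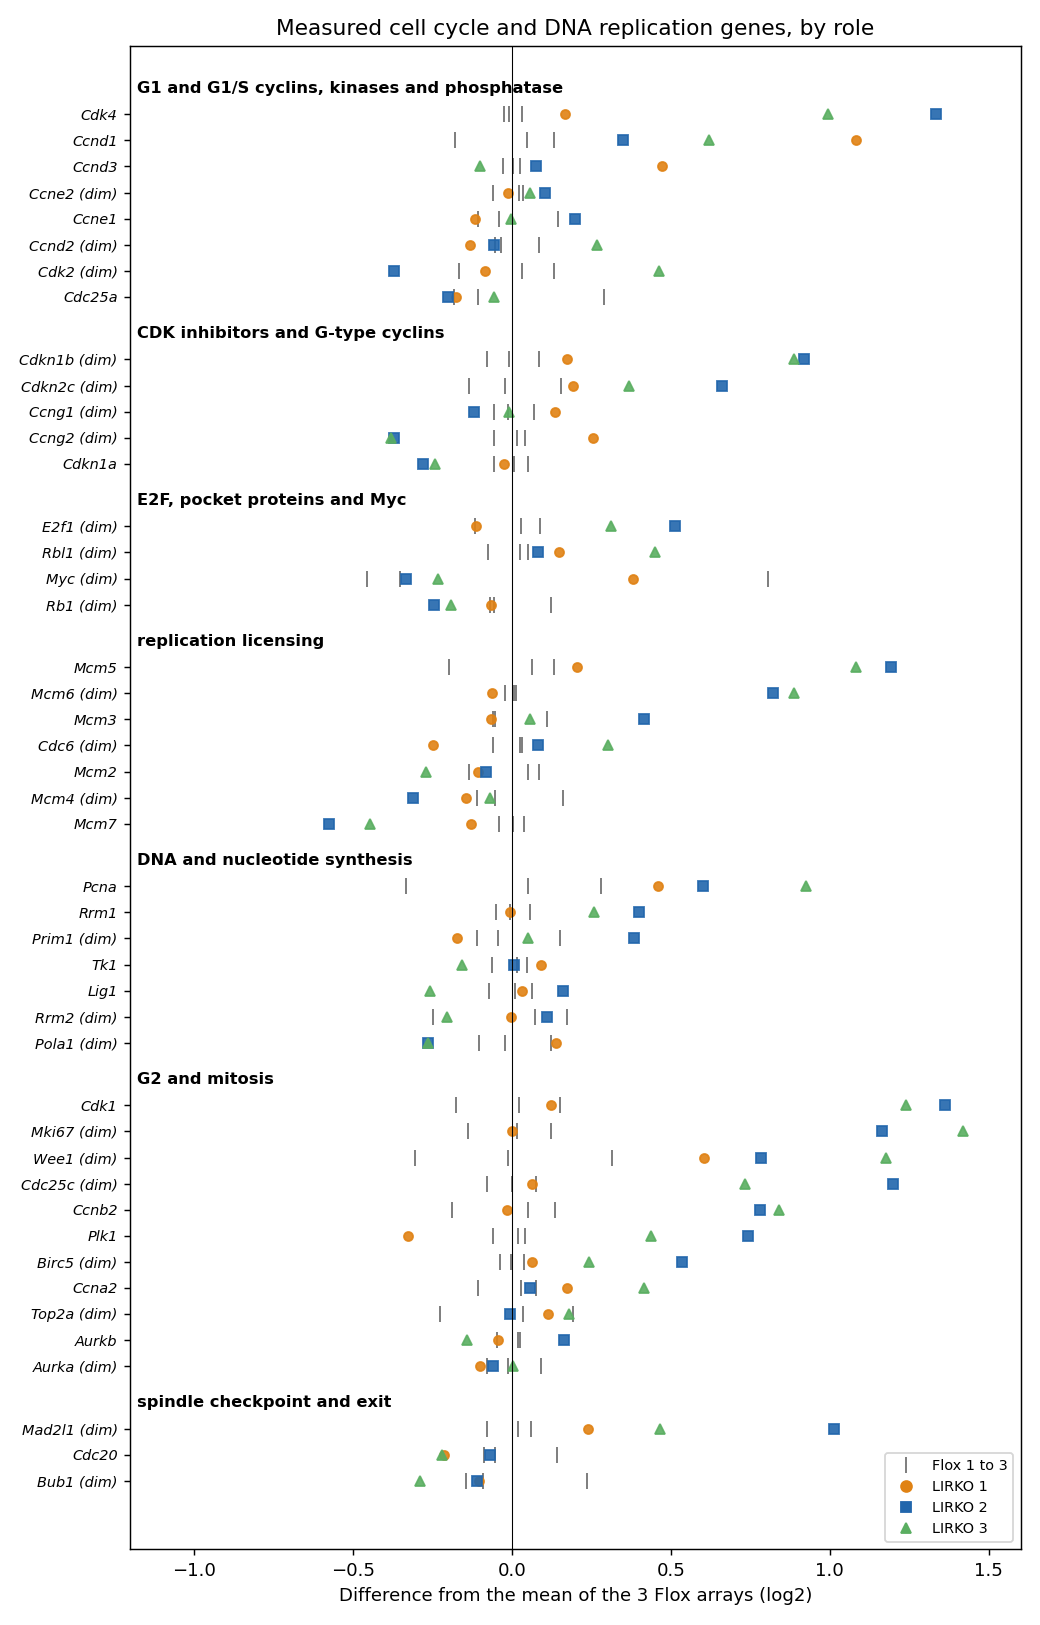
Difference in log2 level of each of the 45 measured genes from the Flox mean, with 1 coloured point per LIRKO array and a grey tick per Flox array, grouped by role in the cell cycle (dim marks genes under the median level of the table). *Cdk1*, *Mki67* and *Cdk4* show LIRKO 1 close to 0 and the other LIRKO arrays about 1 or more above it, while *Wee1* and *Pcna* show all 3 arrays above 0.

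The LIRKO arrays differed among themselves over these genes. On LIRKO 1 alone, 16 genes (35.6%) lay above all Flox arrays against 24.7% of all probe sets, and 11 (24.4%) lay below all of them against 30.9%. LIRKO 2 and LIRKO 3 both lay above all Flox arrays and above LIRKO 1 in 18 genes (40.0%), against 31.2% of the table, and below all of them in 5 (11.1%), against 31.7%. Among the 18 were *Ccne2*, *E2f1*, *Mcm6*, *Cdc6*, *Rrm1*, *Ccnb2*, *Cdk1*, *Cdc25c*, *Plk1* and *Mki67*, and the 5 were *Cdkn1a*, *Ccng2*, *Rb1*, *Mcm7* and *Pola1*.

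The calls turned on these arrays. Without LIRKO 1, limma called 17 of the 45 genes higher (37.8%) against 22.4% of the table, and 2 lower (4.44%), *Ccng2* and *Mcm7*, against 26.7%. With LIRKO 1 as the only LIRKO array, it called 1 gene higher (2.22%), *Ccnd1*, against 0.443% of the table, and 0 lower against 0.282%, and here the lone array was assumed to vary like the Flox arrays.

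The cyclins and kinases of the first gap phase had a median difference of 0.04 over 8 genes, of which 7 lay above 0, the lowest of them *Cdk2* at 0.00. On LIRKO 1, 2 and 3 the median was -0.05, 0.09 and 0.16, and 3, 5 and 5 of the 8 lay above 0. *Ccnd1* encodes cyclin D1, the cyclin that couples growth signals to entry into the cycle. It read 7.76, 7.68 and 7.45 in the Flox arrays and 8.71, 7.98 and 8.25 in the LIRKO arrays. All 3 LIRKO arrays lay above all Flox arrays, and LIRKO 1 was the highest of the 6. The log2 difference was 0.68 (SE 0.20, 95% interval 0.20 to 1.17, n = 3 and 3), with a limma adjusted p of 0.237. With LIRKO 1 as the only LIRKO array it was 1.08. Without LIRKO 1 it was 0.49 (limma adjusted p = 0.0165), in a fit that called 22.4% of the table higher. A dimmer second probe set for *Ccnd1* read 7.45, 7.50 and 7.39 in Flox and 7.58, 7.71 and 7.54 in LIRKO, which is a difference of 0.16.

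*Cdk4*, the kinase partner of the D-type cyclins, read 8.87, 8.85 and 8.91 in Flox and 9.04, 10.21 and 9.87 in LIRKO. All LIRKO arrays lay above Flox, LIRKO 1 by 0.17 and LIRKO 2 by 1.33. The difference of 0.83 (SE 0.28, 95% interval 0.16 to 1.51) had a limma adjusted p of 0.237, and a second, dim probe set for the gene (one whose mean is under the median of the table) differed by 0.06. After quantile and loess normalization the difference for *Cdk4* was 1.29 and 1.28. *Ccnd3*, another D-type cyclin, read 8.30, 8.28 and 8.25 in Flox and 8.75, 8.35 and 8.17 in LIRKO, so that LIRKO 1 stood well above the Flox arrays and LIRKO 3 below them. For *Ccnd2*, *Ccne1*, *Ccne2* and *Cdk2*, the remaining cyclins and the kinase of this phase, the differences lay between 0.00 and 0.05. That of *Cdc25a*, a phosphatase that activates these kinases, was -0.14.

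The CDK inhibitors and the G-type cyclins had a median difference of 0.00 over 5 genes, with 0.17 on LIRKO 1, -0.12 on LIRKO 2 and -0.01 on LIRKO 3. *Cdkn1b*, which encodes the inhibitor p27, read 5.21, 5.11 and 5.04 in Flox and 5.30, 6.04 and 6.01 in LIRKO. Its groups did not overlap, with LIRKO 1 0.17 above the Flox mean and the other LIRKO arrays about 0.9 above it. The difference was 0.66 (SE 0.21, 95% interval 0.15 to 1.17) at a limma adjusted p of 0.237. A second probe set for *Cdkn1b*, with the suffix r and at percentile 1.91, differed by 0.24, with LIRKO 1 below all Flox arrays and the other LIRKO arrays above them. *Cdkn2c*, which encodes p18, read 6.25, 6.53 and 6.36 in Flox and 6.57, 7.04 and 6.75 in LIRKO, again without overlap, and differed by 0.41 (SE 0.16). Both genes were dim, at percentiles 27.4 and 49.1 of the table.

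*Cdkn1a*, which encodes p21, the inhibitor induced by p53, read 8.38, 8.43 and 8.32 in Flox and 8.35, 8.10 and 8.13 in LIRKO. LIRKO 1 lay within the Flox range and the other LIRKO arrays below it, with a difference of -0.18 (SE 0.12, 95% interval -0.47 to 0.11). It lies in the 1 of the 10 level groups in which the median probe set read 0.47 below Flox on LIRKO 2, and after loess normalization the difference was 0.03. *Ccng2* (cyclin G2, a cyclin of resting cells) read 6.72, 6.69 and 6.62 in Flox and 6.93, 6.31 and 6.30 in LIRKO. LIRKO 1 lay above all Flox arrays and the other LIRKO arrays below them, and the mean difference was -0.17 (SE 0.19, 95% interval -0.62 to 0.29). *Ccng1*, a p53 target, read 5.08, 5.03 and 5.16 in Flox and 5.23, 4.97 and 5.08 in LIRKO, a difference of 0.00 (SE 0.12) that turned below 0 after quantile or loess normalization.

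The E2F factor, the pocket proteins and Myc had a median difference of 0.08 over 4 genes, all of them dim. *E2f1*, the activator of replication genes, read 6.53, 6.39 and 6.59 in Flox and 6.39, 7.02 and 6.81 in LIRKO, and its difference of 0.24 (SE 0.18, 95% interval -0.19 to 0.67) rested on LIRKO 2 and LIRKO 3. *Myc*, a growth factor response gene, read 3.91, 4.01 and 5.17 in Flox and 4.74, 4.03 and 4.13 in LIRKO. Flox 3 and LIRKO 1 stood above the other arrays of their groups, and the difference was -0.06 (SE 0.37, 95% interval -0.93 to 0.81). The pocket proteins *Rb1* and *Rbl1*, which hold E2F in check, differed by -0.17 and 0.23.

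The replication licensing genes, which load the MCM helicase at origins, had a median difference of 0.05 over 7 genes, with -0.11 on LIRKO 1 and, after correction for the shift of probe sets of like level, -0.01 over all LIRKO arrays. *Mcm5*, a helicase subunit, read 8.02, 8.28 and 8.35 in Flox and 8.42, 9.41 and 9.30 in LIRKO. All LIRKO arrays lay above all Flox arrays, LIRKO 1 only just, and the difference was 0.83 (SE 0.27, 95% interval 0.18 to 1.47) at a limma adjusted p of 0.237. A second probe set for *Mcm5* read 7.83, 8.10 and 7.78 in Flox and 7.81, 8.96 and 8.34 in LIRKO, which is a difference of 0.47 with LIRKO 1 among the Flox arrays.

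*Mcm7*, another subunit of the same helicase, ran the other way. It read 7.48, 7.52 and 7.44 in Flox and 7.35, 6.90 and 7.03 in LIRKO, all LIRKO arrays below all Flox arrays. The difference was -0.38 (SE 0.14, 95% interval -0.73 to -0.04) at a limma adjusted p of 0.237. *Mcm6* read 4.38, 4.41 and 4.41 in Flox and 4.34, 5.22 and 5.29 in LIRKO, dim and apart on LIRKO 2 and LIRKO 3 only. The remaining licensing genes lay nearer to 0, with *Mcm2* at -0.15, *Mcm3* at 0.14, *Mcm4* at -0.17 and *Cdc6*, which brings the helicase to the origin, at 0.05. On the probe sets used, the differences of the subunits of this one complex had both signs, and none was called. A second, dim probe set for *Mcm3* differed by -0.15.

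The genes of DNA and nucleotide synthesis had a median difference of -0.02 over 7 genes. *Pcna*, the sliding clamp that holds the polymerase on DNA, read 7.10, 6.72 and 7.34 in Flox and 7.51, 7.65 and 7.98 in LIRKO. All 3 LIRKO arrays, LIRKO 1 included, stood 0.46 or more above the Flox mean, as they otherwise did only for *Wee1* among the 45 genes, and the Flox arrays themselves ranged over about 0.6. The difference was 0.66 (SE 0.20, 95% interval 0.19 to 1.14) at a limma adjusted p of 0.237. *Tk1*, the thymidine kinase of the salvage pathway, read 9.34, 9.46 and 9.42 in Flox and 9.50, 9.41 and 9.25 in LIRKO, a difference of -0.02 (SE 0.12, 95% interval -0.30 to 0.26). It falls in the level group that read lowest on LIRKO 2 and LIRKO 3, and after quantile and loess normalization the difference turned to 0.36 and 0.45.

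For the enzymes that make deoxynucleotides, the primase complex and the ligase, the probe sets used lay nearer to 0. *Rrm1* and *Rrm2*, the subunits of ribonucleotide reductase, differed by 0.22 and -0.03, *Pola1* by -0.13, *Prim1* by 0.09 and *Lig1*, which joins Okazaki fragments, by -0.02. On these probe sets the groups of all 5 genes overlapped. The second probe set for *Rrm1*, which is dim, read 5.78, 5.79 and 5.81 in Flox and 5.89, 7.09 and 6.65 in LIRKO, without overlap and with a difference of 0.75 (limma adjusted p = 0.237), so that the mean over both probe sets differed by 0.49. The second probe set for *Lig1* differed by 0.42, with LIRKO 1 inside the Flox range.

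The genes of the second gap phase and mitosis had the highest median of the 7 role groups, 0.29 over 11 genes, of which 9 lay above 0. LIRKO 1 gave a median of 0.06, LIRKO 2 of 0.74 and LIRKO 3 of 0.44, and 7, 9 and 10 of the 11 genes lay above 0 on these arrays. After the median shift of the probe sets of like level was taken off each array, it was 0.42. Of the 11 genes 6 were dim.

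**Figure D2:**
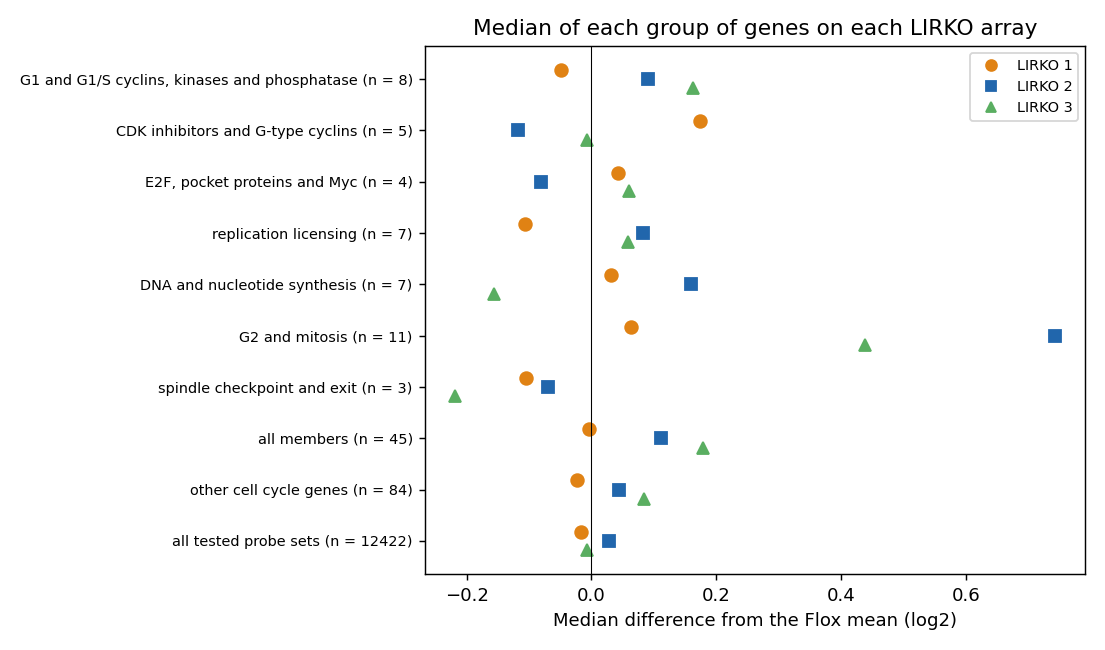
Median log2 difference from the Flox mean for each role group of genes, all 45 measured genes, 84 other cell cycle genes and all tested probe sets, with 1 point per LIRKO array. The genes of the second gap phase and mitosis reach 0.74 on LIRKO 2 and 0.44 on LIRKO 3 and stand at 0.06 on LIRKO 1, while all probe sets stay within 0.03 of 0.

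*Cdk1*, the kinase that drives entry into mitosis, had the largest mean difference of the 45 genes on the deposited values. After quantile and loess normalization *Cdk4* (1.29 and 1.28) and *Mcm5* (1.14 and 1.11) exceeded it (0.99 and 0.93). It read 6.45, 6.77 and 6.65 in Flox and 6.74, 7.98 and 7.86 in LIRKO, with LIRKO 1 inside the Flox range. The difference was 0.91 (SE 0.33, 95% interval 0.13 to 1.68), which is 1.88-fold, at a limma adjusted p of 0.237. Without LIRKO 1 it was 1.30 (limma adjusted p = 5.1e-05), in a fit that called 22.4% of the table higher and 26.7% lower. The median shift of its level group lay between -0.01 and 0.02 on the LIRKO arrays. The part of the differences between these arrays in this value was not tested. *Ccnb2*, a B-type cyclin and partner of this kinase, read 7.05, 7.37 and 7.28 in Flox and 7.22, 8.01 and 8.07 in LIRKO, with LIRKO 1 again inside the Flox range, and differed by 0.53 (95% interval -0.05 to 1.12, limma adjusted p = 0.250).

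*Wee1*, the kinase that holds CDK1 inactive, had the smallest p of the 45 genes. It read 4.82, 5.12 and 5.44 in Flox and 5.73, 5.91 and 6.31 in LIRKO, and every LIRKO array lay above the Flox arrays, with LIRKO 1 at 0.61 above the Flox mean. The difference was 0.86 (SE 0.21, 95% interval 0.35 to 1.36, 1.81-fold) with a limma adjusted p of 0.237, on a dim probe set at percentile 29.2. *Cdc25c*, a phosphatase that opposes it, read 5.54, 5.70 and 5.62 in Flox and 5.69, 6.82 and 6.36 in LIRKO, a difference of 0.67, while a second probe set for it differed by -0.12.

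*Mki67*, which encodes the proliferation marker Ki-67, read 5.68, 5.94 and 5.83 in Flox and 5.82, 6.98 and 7.24 in LIRKO. LIRKO 1 sat at the Flox mean and the other LIRKO arrays more than 1 above it, with a difference of 0.86 (SE 0.35, 95% interval 0.02 to 1.70, limma adjusted p = 0.238). Its second probe set, at percentile 5.83, read 3.46, 3.47 and 3.71 in Flox and 3.65, 3.95 and 3.75 in LIRKO, a difference of 0.23. *Top2a*, the topoisomerase of dividing cells and another usual marker of proliferation, read 5.52, 5.36 and 5.10 in Flox and 5.44, 5.32 and 5.51 in LIRKO. Its groups overlapped throughout, and the difference was 0.10 (SE 0.14, 95% interval -0.25 to 0.44).

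*Plk1*, a mitotic kinase, read 8.09, 8.11 and 8.01 in Flox and 7.74, 8.81 and 8.51 in LIRKO. LIRKO 1 lay below all Flox arrays and the other LIRKO arrays above them, so the difference of 0.29 (SE 0.26, 95% interval -0.34 to 0.91) joins opposite signs. On the other probe sets for *Plk1* LIRKO 1 lay inside the Flox range, and the differences were 0.19 and 0.07. *Ccna2* differed by 0.21, *Birc5* (survivin, of the chromosomal passenger complex) by 0.28, and the Aurora kinases *Aurka* and *Aurkb* by -0.05 and -0.01.

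Of the spindle checkpoint and mitotic exit genes, *Mad2l1* and *Cdc20* lay on opposite sides of 0. *Mad2l1*, which encodes the checkpoint protein MAD2, read 4.50, 4.64 and 4.60 in Flox and 4.82, 5.59 and 5.05 in LIRKO, without overlap but dim, and differed by 0.57 (SE 0.21, 95% interval 0.09 to 1.06, limma adjusted p = 0.237). *Cdc20*, the activator of the anaphase-promoting complex that MAD2 restrains, read 7.77, 7.97 and 7.74 in Flox and 7.61, 7.76 and 7.61 in LIRKO, a difference of -0.17 (SE 0.12, 95% interval -0.45 to 0.12). *Bub1*, a checkpoint kinase, differed by -0.17, and the median of the 3 genes was -0.17.

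**Figure D3:**
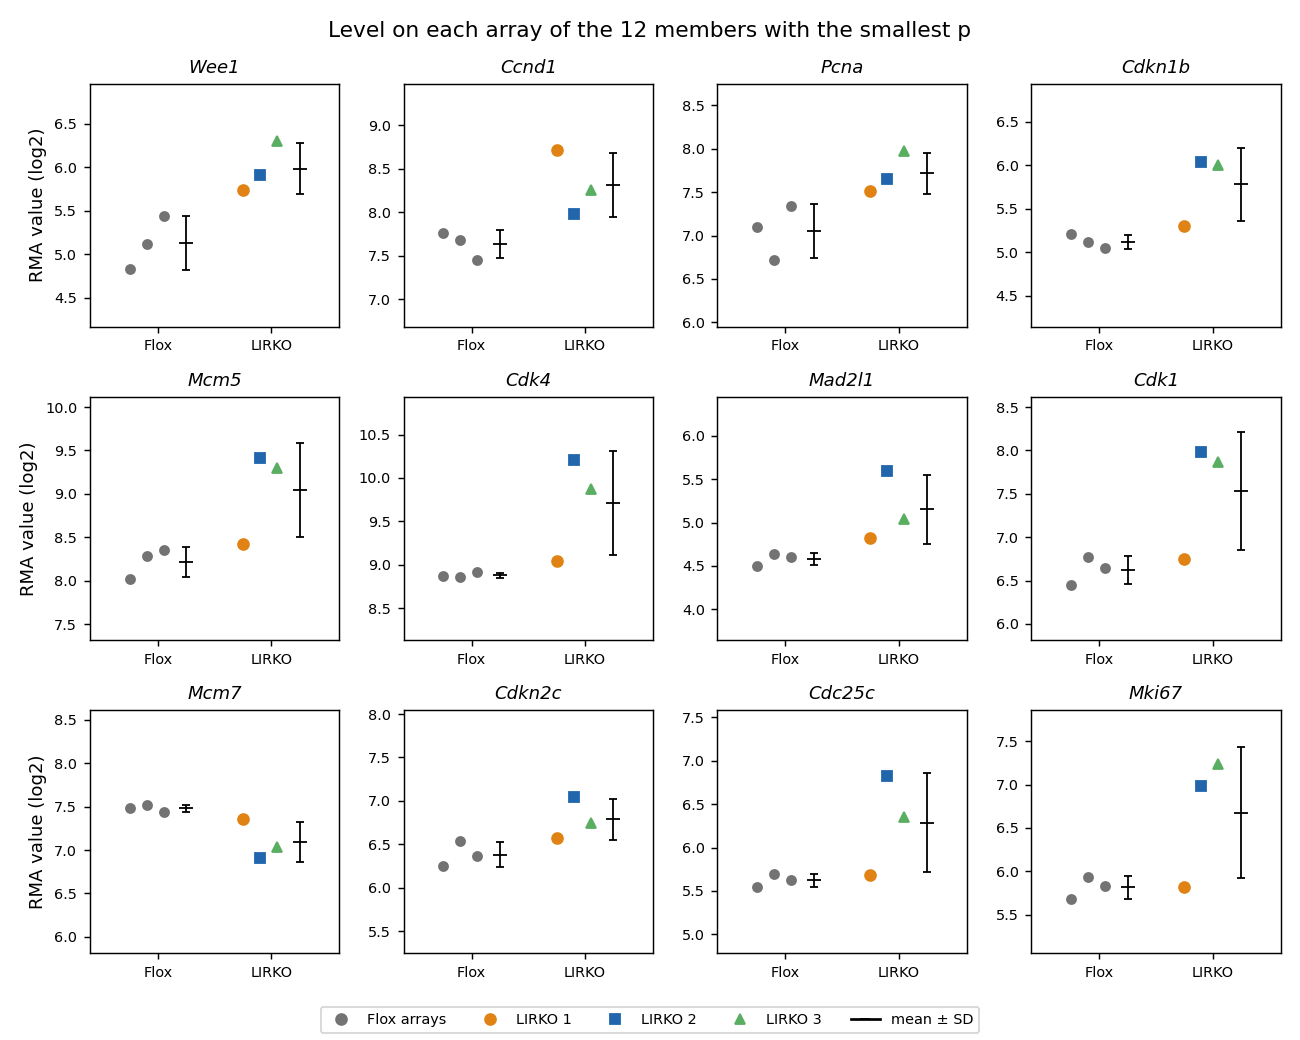
Log2 level of the 12 genes with an unadjusted p under 0.05 in limma on each of the 6 arrays, with 1 point per array and the mean and SD of each group of 3. *Pcna* and *Wee1* have all LIRKO arrays above the Flox arrays, *Mcm7* has all below, and *Cdk1* and *Mki67* have LIRKO 1 among the Flox arrays.

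Cell cycle promoters are known for a few short elements, and the promoters of 5 genes that lay well above Flox on LIRKO 2 and LIRKO 3 are shown with and without them. They were picked after values and matches were seen, *Cdk1*, *Ccnb2* and *Mki67* for mitosis, *Mcm5* for licensing and *Cdk4* as a window that holds none of the letters searched. The CHR (cell cycle genes homology region) is bound by the DREAM and MuvB complexes, the CCAAT box by NF-Y, and E2F sites by E2F with its pocket proteins. RefSeq windows (GRCm38.p6) from 250 bases before to 50 after the annotated start were given for 35 of the 45 genes, and they are printed 5′ to 3′ on the gene's strand, with the letters TTTGAA (CHR), CCAAT, and TTTGGCGC, TTTCCCGC, TTTCGCGC or TTTGCCGC (E2F) in capitals where they, or their reverse complements, occur.
*Cdk1*, chr10:69352863-69353162, minus strand: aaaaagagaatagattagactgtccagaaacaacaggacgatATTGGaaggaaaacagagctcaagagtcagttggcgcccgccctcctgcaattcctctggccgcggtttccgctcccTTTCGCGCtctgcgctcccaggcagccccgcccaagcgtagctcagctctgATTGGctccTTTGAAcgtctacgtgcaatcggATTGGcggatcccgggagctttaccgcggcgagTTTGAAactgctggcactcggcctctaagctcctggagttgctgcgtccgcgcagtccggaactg
*Ccnb2*, chr9:70421505-70421804, minus strand: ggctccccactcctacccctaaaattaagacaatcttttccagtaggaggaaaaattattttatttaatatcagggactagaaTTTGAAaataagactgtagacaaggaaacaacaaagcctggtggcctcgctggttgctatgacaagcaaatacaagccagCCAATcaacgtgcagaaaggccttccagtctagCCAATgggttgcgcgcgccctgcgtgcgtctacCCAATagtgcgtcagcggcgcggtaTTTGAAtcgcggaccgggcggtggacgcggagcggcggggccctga
*Mki67*, chr7:135716330-135716629, minus strand: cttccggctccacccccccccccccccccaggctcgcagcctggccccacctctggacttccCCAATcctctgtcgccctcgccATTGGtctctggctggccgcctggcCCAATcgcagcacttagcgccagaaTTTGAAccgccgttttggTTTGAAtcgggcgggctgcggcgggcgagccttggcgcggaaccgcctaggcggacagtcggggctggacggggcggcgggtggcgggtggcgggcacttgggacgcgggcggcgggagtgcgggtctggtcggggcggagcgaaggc
*Mcm5*, chr8:75109259-75109558, plus strand: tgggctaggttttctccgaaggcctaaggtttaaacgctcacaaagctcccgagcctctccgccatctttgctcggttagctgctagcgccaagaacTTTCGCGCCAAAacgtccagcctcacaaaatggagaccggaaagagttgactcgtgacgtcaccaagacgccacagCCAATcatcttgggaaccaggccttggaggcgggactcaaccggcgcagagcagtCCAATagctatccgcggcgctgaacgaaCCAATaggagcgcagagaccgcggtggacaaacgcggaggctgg
*Cdk4*, chr10:127063285-127063584, plus strand: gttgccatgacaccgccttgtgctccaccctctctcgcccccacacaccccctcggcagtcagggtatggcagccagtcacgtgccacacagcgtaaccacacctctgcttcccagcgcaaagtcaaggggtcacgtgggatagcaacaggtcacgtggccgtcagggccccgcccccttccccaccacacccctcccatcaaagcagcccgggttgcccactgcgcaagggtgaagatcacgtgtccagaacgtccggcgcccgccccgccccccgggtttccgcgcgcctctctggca

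The *Cdk1*, *Ccnb2* and *Mki67* windows each hold the CHR letters in 2 places and the CCAAT letters in 3, and the *Cdk1* window also holds 1 E2F match. The *Mcm5* window holds no CHR letters, 3 CCAAT matches and 2 E2F matches that overlap each other. *Cdk4* lay 1.33 and 0.99 above the Flox mean on LIRKO 2 and LIRKO 3, and *Mad2l1*, *Cdkn1b* and *Mcm6*, whose windows hold no CHR letters either, lay above Flox there too. Searched on both strands, the CHR and CCAAT letters occurred together in 6 of the 7 genes of the second gap phase and mitosis that have a window (*Ccnb2*, *Cdk1*, *Plk1*, *Aurka*, *Top2a* and *Mki67*, but not *Birc5*), against 7.97% of 27025 genes with a window. In the other role groups *Mcm2* (-0.15) and *Cdc20* (-0.17) also held both, which makes 8 of the 35 measured genes with a window. The 6 genes of the second gap phase and mitosis did not read alike in LIRKO, since they run from *Aurka* at -0.05 and *Top2a* at 0.10 to *Cdk1* at 0.91. E2F letters occurred in 5 of 6 licensing genes (*Mcm3*, *Mcm5*, *Mcm6*, *Mcm7* and *Cdc6*) against 2.60% of all genes, and among these are both *Mcm5* at 0.83 and *Mcm7* at -0.38. A match of letters is a description of the window and not a binding site.

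The probe set that stood for a gene mattered to its value. Of the 45 genes, 17 had several probe sets, 64 probe sets over all 45. In 10 of the 17 all probe sets had differences of 1 sign, and in 7 they had both signs. These 7 were *Cdc25a*, *Cdkn1a*, *Rb1*, *Mcm3*, *Lig1*, *Tk1* and *Cdc25c*. Their second probe sets differed by 0.06, 0.02, 0.11, -0.15, 0.42, 0.12 and -0.12, in that order. For *Cdk2*, at 0.00 on the probe set used, the second differed by 0.22. In 5 genes (*Ccnd1*, *Cdk4*, *Cdc25c*, *Mki67* and *Rrm1*) the probe sets lay more than 0.5 apart. *Mcm5* and *Mki67* were read on probe sets of the class that Affymetrix marks with the suffix r (designed under relaxed rules). The 901 probe sets of this class had median differences of -0.04, 0.41 and 0.38 on LIRKO 1, 2 and 3. Over 9614 probe sets with no suffix letter these were -0.01, -0.01 and -0.03. The part of this class in the values of *Mcm5* and *Mki67* was not tested.

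**Figure D4:**
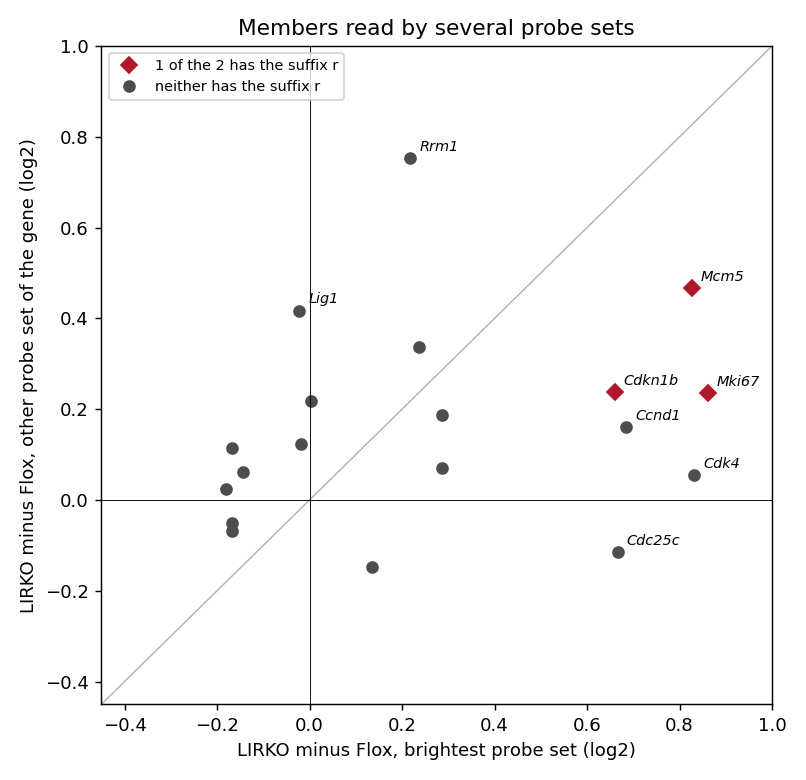
Log2 difference between LIRKO and Flox on the probe set used for a gene (horizontal) and on each other probe set of it (vertical), for the 17 genes that have more than 1, with diamonds where either has the suffix r and a diagonal for equal values. *Ccnd1*, *Cdk4*, *Cdc25c*, *Mki67* and *Rrm1* lie more than 0.5 from equal values.

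The shift on LIRKO 2 and LIRKO 3 went with the level of the probe sets over the table. Of the 45 genes 25 (55.6%) were dim. Their median difference was 0.05, and that of the 20 genes that were not dim was 0.14. When the median shift of the probe sets in the same level group was taken off, the median over all 45 genes was 0.11, that of the dim genes -0.04 and that of the others 0.34. *Cdk4* and *Mcm5* lie in a level group with a median shift of -0.47 and -0.38 on these arrays. *Mcm5* is also in the suffix r class with its shift of 0.41 and 0.38, so that the 2 shifts have opposite signs for this gene. The class has a lower median Flox level (5.64) than probe sets with no suffix letter (6.67), and *Mcm5* has a mean Flox level of 8.22. The shift of the class was not separated from that of level.

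**Figure D5:**
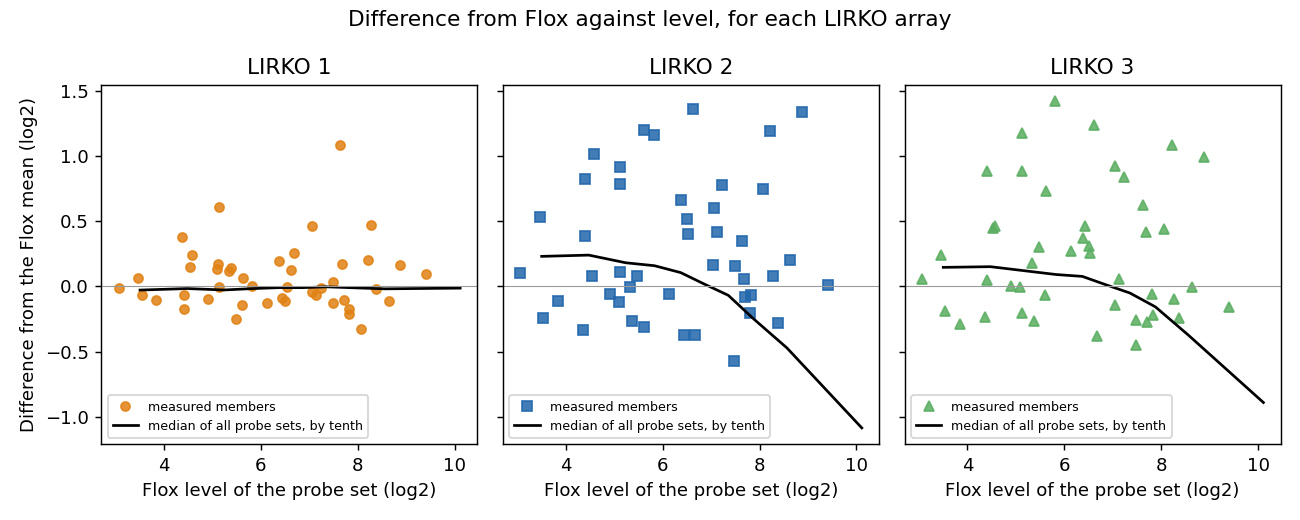
Log2 difference from the Flox mean on each LIRKO array against the mean Flox level, with the 45 genes as points and the median of all tested probe sets in each of 10 level groups as a line. The line stays near 0 on LIRKO 1 and drops to -1.09 on LIRKO 2 and -0.89 on LIRKO 3 in the highest group.

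Other genes of the cell cycle and DNA replication came from a list of 100, of which 84 were measured. They gave 0 calls in limma as well, with 20 at an unadjusted p under 0.05. In limma 6 of the 84 (7.14%) read higher and 14 (16.7%) lower at that p, against 7.43% and 13.5% of the table. In the unequal variance test of the methods, 8 (9.52%) had an unadjusted p under 0.05, against 5.86% of the table. The median difference was 0.06, with 51 genes above 0. All LIRKO arrays lay above Flox in 9 genes (10.7%) and below in 17 (20.2%), against 9.84% and 14.9% of all probe sets. The smallest p belonged to *Rpa2*, a subunit of the single-strand binding complex, which read 6.43 ± 0.198 in Flox and 5.74 ± 0.240 in LIRKO (SD, n = 3 and 3), a difference of -0.69 (SE 0.17, limma adjusted p = 0.237). The origin recognition genes *Orc5* (-0.51) and *Orc6* (-0.43) and the mitochondrial thymidine kinase *Tk2* (-0.49) followed at the same limma adjusted p, and in all 4 genes the LIRKO arrays lay below the Flox arrays.

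Markers of other liver cells were read beside these values, and none was called. The mean log2 level of the lymphocyte markers (7 of 8 measured, with *Cd3d*, *Cd79b*, *Ptprc* and *Cd8a* dim) ranged from 5.87 to 5.94 in Flox and from 5.90 to 6.02 in LIRKO, with a median difference of 0.11 on LIRKO 2 and 0.28 on LIRKO 3. Single markers split in the mean difference. *Cd3e* (0.44), *Cd79a* (0.37), *Cd8a* (0.20) and *Cd3d* (0.15) lay above 0, and *Ighm* (-0.24), *Ptprc* (-0.20) and *Cd79b* (-0.15) below it. The stellate and fibroblast markers (6 of 6, *Acta2* and *Pdgfrb* dim) ranged from 6.95 to 7.18 in Flox and from 6.91 to 7.48 in LIRKO. Their median difference was -0.09 on LIRKO 1 and 0.28 on LIRKO 2 and on LIRKO 3, but they did not move as one, since *Col1a2*, on a probe set with the suffix r, differed by 1.33 and *Col3a1* by -0.90. The macrophage markers (8 of 8, *Marco* dim) ranged from 7.18 to 7.79 and from 7.15 to 7.91, and the endothelial markers (5 of 6, *Tek* dim) from 6.38 to 6.75 and from 6.66 to 6.85. The 3 of 5 cholangiocyte markers measured were all dim, with a median difference of -0.01. The hepatocyte markers had a median difference of 0.03 on LIRKO 1, -0.68 on LIRKO 2 and -0.96 on LIRKO 3, and the erythroid markers (4 of 6, *Klf1* dim) 0.01, -1.21 and -0.59. All the hepatocyte markers measured, and *Hba-a1* and *Alas2* of the erythroid ones, lie in the highest of the 10 level groups. There the median of all probe sets was -0.01, -1.09 and -0.89 on LIRKO 1, 2 and 3. The part of this shift in the marker values was not tested. The part of these other cells in the cell cycle values was not tested.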

How the data were processed

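Liver RNA was read on Affymetrix mouse arrays, and the authors computed the deposited log2 expression values by RMA, per the labels (the study's methods name the affy and limma packages). No raw signals or detection calls were used here, so the number of arrays and pools sets the precision. Of 12488 probe sets, 66 array controls were left out. Of the 12422 tested, 10833 carry 1 gene symbol in the platform annotation, 396 carry several and 1193 none, and all 45 measured genes were found in RefSeq under the same symbol by Entrez ID. Columns of no sample numbered 0.

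The genes and lists were chosen with earlier results of these data known. LIRKO was compared with Flox over 3 and 3 arrays with limma 3.58.1 (lmFit and eBayes, R 4.3.3), adjusted by Benjamini-Hochberg over all tested probe sets at 0.05, and the scripts were tested on simulated data. Tables and figures were made with Python 3.11.15, numpy 2.4.6, pandas 2.3.3 and matplotlib 3.10.9. Genes given in full were a fixed set of regulators and markers and the 10 of smallest p. The gene of highest mean level in each role group was added, which makes 20 in all. Others were named for a role group, for a count, or for probe sets that differ. The arrays share replicate numbers, but the labels name no pairing, and the main fit did not pair the pools. Deviations of same-numbered arrays correlated at 0.09 to 0.40 and those of others at -0.37 to 0.17. These ranges overlap and do not settle whether the pools were paired, and a replicate block was run as an alternative. Alternatives were quantile, loess and median normalization, a filter on dim probe sets, each array left out, LIRKO 1 alone, averaging over all probe sets of a gene, a replicate block, a trended variance, array weights, the unequal variance test of the methods and a correction by level group.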

Additional observations from a re-analysis of the deposited data

Results flagged for a closer look

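The array control probe sets, which no comparison used, read above the Flox mean on the arrays that stood apart. The median over the 66 controls was 0.33 above it on LIRKO 2 and 0.21 on LIRKO 3, against -0.05 on LIRKO 1 and -0.04 to 0.05 on the single Flox arrays. Groups of 3 arrays are too small for a test of single outlying values.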

How the results depend on the processing

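None of the 45 genes was called under quantile, loess or median normalization, the filter on dim probe sets, the trended variance, the unequal variance test, averaging over all probe sets of a gene or the probe sets without suffix r (an alternative chosen after seeing the data). The replicate block also called 0 of them and 11 probe sets of the table, against 16. LIRKO 1 alone called 1 gene and array weights, whose estimate did not converge, 31, and 61 of the 84 others. Leaving out single arrays called 0 to 19 genes and 0 to 40 others, and 2 to 6095 probe sets of the table, the highest in each case without LIRKO 1. The table gave 90 calls for LIRKO 1 alone, 23 after quantile and 40 after loess normalization, 8694 with weights and 0 in the unequal variance test.

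The median over the genes was 0.19 with weights and 0.06 to 0.11 with single arrays left out. In the E2F group it was -0.0222 after quantile and -0.0194 after loess normalization, -0.0412 after the correction by level group and -0.0106 to 0.236 without single arrays, and no gene of it remained under the filter. In the spindle group these were -0.0449, -0.0590, -0.0273 and -0.211 to -0.0499. The first gap phase gave 0.15 under loess and under the filter, 0.17 with weights, 0.16 by level group and 0.02 to 0.13 without single arrays. The CDK inhibitors gave -0.18 under the filter, which left only *Cdkn1a* of the group. They gave 0.17 on LIRKO 1 alone and -0.06 to 0.06 without single arrays. Licensing gave -0.11 on LIRKO 1 alone and -0.0833 to 0.192 without single arrays. The mitotic genes gave 0.49 after quantile and 0.48 after loess normalization, 0.06 on LIRKO 1 alone and 0.26 to 0.59 without single arrays. Genes with all LIRKO arrays above Flox numbered 4 of the 20 left under the filter and 10 to 20 of 45 without single arrays. For LIRKO 1 alone they numbered 16 of 45 (35.6% against 24.7% of all probe sets). Those below Flox numbered 3 after quantile and loess normalization, 2 after median centring and 2 to 5 without single arrays. For LIRKO 1 alone they numbered 11 (24.4% against 30.9%). Groups of fewer arrays separate more easily, and the other settings have no share of the table beside them here. The cause of these changes was not tested.

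Of 20 genes described in full, 12 kept their sign under every alternative. *Ccng1* read -0.0885 after quantile and -0.0902 after loess normalization, -0.0107 after centring, -0.0227 with weights and -0.0627 to 0.0643 without single arrays. *Tk1* read 0.36 and 0.45 after quantile and loess normalization, 0.0930 on LIRKO 1 alone, 0.0526 as a mean of probe sets and -0.0746 to 0.0498 without single arrays, and *Cdkn1a* 0.0279 after loess. On LIRKO 1 alone *Ccng2* was 0.25, *E2f1* -0.11, *Myc* 0.38 and *Plk1* -0.33. Without single arrays *Myc* ran from -0.29 to 0.34 and *Top2a* from -0.0172 to 0.19. With 3 pools a group, none of these 20 genes passed the adjusted limma test in the main fit. The part of the spread within each group in this was not tested.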

Other observations

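Among the other cell cycle genes, chosen after their values were seen, *Cenpe*, a kinesin of the kinetochore, had the largest difference of the 84 measured. It read 3.82, 3.80 and 3.47 in Flox and 3.80, 7.01 and 6.56 in LIRKO, so that LIRKO 1 lay among the Flox arrays and the other LIRKO arrays about 3 above them. The difference was 2.09 (SE 0.78, 95% interval 0.25 to 3.94) at a limma adjusted p of 0.237. *Kif2c*, a kinesin that trims spindle microtubules, also had LIRKO 1 among the Flox arrays, at 0.53 (SE 0.22, limma adjusted p = 0.238). Of the other kinesins on the list, *Kif23* lay above Flox on all LIRKO arrays (0.37), *Kif11* differed by 0.18 and *Kif20a* by -0.28. The lowest values belonged to *Ran* (-1.04), a GTPase of nuclear transport and the spindle, *Bub3* (-0.83), a checkpoint protein, and *Cks2* (-0.79), a subunit of CDK complexes. In *Ran* LIRKO 1 lay 0.03 above the Flox mean, and in the other two all LIRKO arrays lay below Flox. *Gadd45a* and *Gadd45b*, stress genes that slow the cycle, lay on opposite sides, with all LIRKO arrays below Flox in the first (-0.45, SE 0.15) and above in the second (0.37, SE 0.12), both at a limma adjusted p of 0.237.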
